A study of Mus musculus with 40 samples.

Results

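The genes described here are 38 cell cycle genes of the mouse retina, 11 that act in S phase and 27 that act in G2 and mitosis. They were found by symbol in the gene table of the study, where all 38 were present among 42037 symbols, and all 38 were among the 23495 genes that passed the filter on low counts. The study measured RNA from whole retinas of C57BL/6J mice in oxygen-induced retinopathy (OIR), a model in which young mice are kept in 75% oxygen from postnatal day (P) 7 to P12 and returned to room air. Vessels of the central retina are lost in oxygen, and new vessels grow abnormally after the return to room air. In the OIR groups 1 µl was injected into the vitreous at P14, and retinas were taken at P17 or P19. The injections held a control IgG at 0.4 µg/µl, the anti-VEGFA antibody B20.4.1 at 0.2 µg/µl, the anti-ANG-2 antibody LC10 at 0.2 µg/µl, or the bispecific antibody B20.4.1_LC10, which binds both targets, at 0.4 µg/µl. The control retinas came from mice of the same strain and age without OIR, and the labels used here do not say whether these mice were injected. Each of the 10 groups had 4 retinas, with 1 whole retina per library, and no label ties a retina to a mouse or litter.

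A dividing cell copies its DNA once in S phase and separates the copies in mitosis. Cyclin E with its kinase starts replication, the MCM helicase opens the DNA, and the PCNA clamp holds the polymerases on it. CDK1 with cyclin A and cyclin B then drives entry into mitosis, where kinases, kinesins and spindle proteins move the chromosomes, and the anaphase-promoting complex (APC/C) ends the phase by marking cyclin B and other proteins for destruction. In the retina at these ages the neurons have left the cell cycle, and the cells known to divide in OIR include vascular endothelium, microglia and other glia. Transcription of the S phase genes is known to depend on E2F sites, and that of the mitosis genes on CCAAT boxes and on the cell cycle homology region (CHR).

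Promoters are shown for the 6 members that passed the test in any comparison, since these carry the differences described here. RefSeq promoter sequences of the build GRCm38.p6, 250 bases before to 50 bases after a start site, were matched by symbol for 32 of the 38 members, and Kif20a, Aurkb, Tpx2, Mcm4, Ccna2 and Ccne2 had no match. Capitals mark the CCAAT box (CCAAT), the CHR (TTTGAA) and the E2F site (TTTCCCGC, TTTCGCGC, TTTGCCGC or TTTGGCGC), searched on both strands, with overlapping matches counted apart. The windows are chr2:164769679-164769978 on the plus strand for Ube2c, chr2:132253131-132253430 on the minus strand for Pcna, chr13:100786437-100786736 on the minus strand for Ccnb1, chr7:80294201-80294500 on the plus strand for Prc1, chr1:20820263-20820562 on the minus strand for Mcm3 and chr11:117848987-117849286 on the plus strand for Birc5.
Ube2c: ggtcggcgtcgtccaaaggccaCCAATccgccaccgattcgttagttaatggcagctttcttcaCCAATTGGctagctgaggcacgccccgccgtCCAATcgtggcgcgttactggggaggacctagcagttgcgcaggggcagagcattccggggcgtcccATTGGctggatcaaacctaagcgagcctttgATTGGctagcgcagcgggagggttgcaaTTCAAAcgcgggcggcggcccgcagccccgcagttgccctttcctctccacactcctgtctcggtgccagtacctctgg
Pcna: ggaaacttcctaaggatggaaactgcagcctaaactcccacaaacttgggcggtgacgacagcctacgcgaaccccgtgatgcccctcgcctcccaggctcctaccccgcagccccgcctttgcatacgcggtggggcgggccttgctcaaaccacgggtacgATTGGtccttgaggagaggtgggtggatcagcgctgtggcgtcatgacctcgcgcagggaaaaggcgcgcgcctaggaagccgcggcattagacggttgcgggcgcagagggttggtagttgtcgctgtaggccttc
Ccnb1: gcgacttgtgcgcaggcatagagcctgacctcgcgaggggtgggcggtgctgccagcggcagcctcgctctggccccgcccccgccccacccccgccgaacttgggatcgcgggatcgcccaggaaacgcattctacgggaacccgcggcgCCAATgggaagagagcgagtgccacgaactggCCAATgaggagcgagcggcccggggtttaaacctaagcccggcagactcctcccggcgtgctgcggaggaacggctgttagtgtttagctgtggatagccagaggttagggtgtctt
Prc1: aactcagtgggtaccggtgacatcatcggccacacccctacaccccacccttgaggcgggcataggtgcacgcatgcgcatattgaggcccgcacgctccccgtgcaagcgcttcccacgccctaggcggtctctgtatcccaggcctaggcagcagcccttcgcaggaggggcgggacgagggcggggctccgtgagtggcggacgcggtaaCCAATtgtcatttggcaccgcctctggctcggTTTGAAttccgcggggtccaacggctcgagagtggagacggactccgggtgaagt
Mcm3: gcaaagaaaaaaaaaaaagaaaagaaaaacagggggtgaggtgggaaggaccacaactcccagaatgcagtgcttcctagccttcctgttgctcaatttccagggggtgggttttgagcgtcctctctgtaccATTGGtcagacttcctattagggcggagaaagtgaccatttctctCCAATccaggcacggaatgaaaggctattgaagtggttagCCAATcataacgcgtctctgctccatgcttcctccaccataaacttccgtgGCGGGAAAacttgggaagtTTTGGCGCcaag
Birc5: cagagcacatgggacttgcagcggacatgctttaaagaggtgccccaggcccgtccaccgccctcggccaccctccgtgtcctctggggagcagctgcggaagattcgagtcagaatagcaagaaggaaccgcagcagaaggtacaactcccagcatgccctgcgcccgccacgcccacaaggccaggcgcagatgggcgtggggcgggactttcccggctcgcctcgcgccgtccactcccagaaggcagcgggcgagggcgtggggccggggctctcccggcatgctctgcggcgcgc

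The Ube2c promoter held 6 CCAAT matches, of which 1 pair overlaps on the opposite strands, and 1 CHR. Prc1 held 1 CCAAT match and 1 CHR, Ccnb1 held 2 CCAAT matches and Pcna 1. Mcm3 held 3 CCAAT matches and 2 E2F matches, and none of these letters was found in the Birc5 window. Over the 32 members matched, a CCAAT box was found in 25 (78.1%), against 41.1% of 27025 genes and 37.4% of all 32851 promoters of the same length. The CHR was found in 16 of 23 mitosis members (69.6%) and 1 of 9 S phase members (11.1%), against 20.2% of genes and 17.9% of promoters. An E2F site was found in 4 of 9 S phase members (44.4%) and 1 of 23 mitosis members (4.35%), against 2.60% of genes and 2.26% of promoters. These matches describe letters in a window and were not tested.

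Most members were expressed at a low level in these retinas. On the TPM scale, which takes account of transcript length, Pcna had a mean of 148 TPM over the 40 libraries and stood far above every other member. The next were Mcm7 with 9.68 TPM, Ccne2 with 5.6, the spindle gene Tacc3 with 5.57 and Ccne1 with 5.48. At the low end were Mki67 with 0.241 TPM, Melk with 0.232, Top2a with 0.197 and Kif23 with 0.110. Kif23 had no counts in 23 libraries, Melk in 13, Kif20a in 10, Cdc20 in 9, Top2a and Rrm2 in 8, Aurkb in 7, Bub1 in 5 and Ccnb1 in 4. Of the 27 mitosis members, 12 had a mean under 1 CPM (a gene's count scaled to a common library size with TMM factors) in the control retinas at P17: Ccnb1, Ccnb2, Aurkb, Bub1, Melk, Ube2c, Kif20a, Kif23, Kif2c, Nusap1, Prc1 and Top2a. In 1 library a single count was worth 0.0403 to 0.0876 CPM, so these genes rest on few counts. The table also lists Ccnb1-ps and Tyms-ps, with 236 and 27 counts over all libraries, and reads that match both a gene and such a copy may have been split between them, so Ccnb1 and Tyms are uncertain to that extent.

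**Figure D1:**
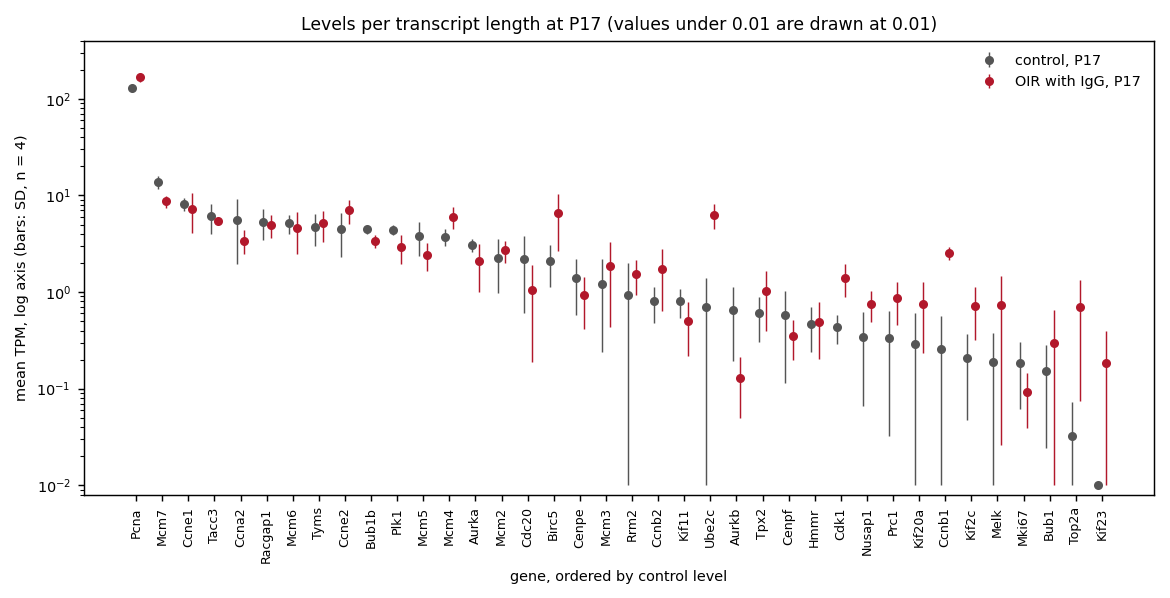
Mean TPM with SD (logarithmic axis) of the 38 genes in the 4 control and the 4 OIR retinas given IgG at P17, ordered by level. Pcna stands far above the other members, and most mitosis genes lie at a few TPM or less.

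Library totals ran from 9155091 to 25835055 counts. Crystallin genes of the lens were high in 3 libraries, IgG replicate 4, anti-VEGFA replicate 4 and anti-ANG2 replicate 2, all at P17. Anti-VEGFA replicate 3, bispecific replicate 3 and anti-ANG2 replicate 1 at P19 correlated least with the other libraries. Y-linked transcripts, a mark of sex, were unevenly spread over the groups. They were high in 4 of 4 IgG retinas at P19 (186 to 219 CPM summed over 4 genes). All anti-VEGFA retinas at P17 were high too (196 to 278 CPM). All retinas with anti-ANG2 at P17 or the bispecific antibody at P19 were at 0. Sex and antibody therefore cannot be told apart in bispecific against IgG at P19 or anti-VEGFA against anti-ANG2 at P17. Other comparisons with these groups differ in sex in part. In bulk RNA, fewer cells of a type and less RNA per cell cannot be told apart.

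The first comparison asked how OIR itself changed the 38 genes, with retinas given IgG set against control retinas. At P17, 2 members rose in OIR and 0 fell: Ube2c, the APC/C's ubiquitin-conjugating enzyme, rose 10.6-fold, and Pcna, the sliding clamp of replication, rose 1.60-fold. These were calls at an adjusted p under 0.05 in edgeR's quasi-likelihood test over all genes. Among all genes tested 2.11% rose (496 of 23495) and 0.251% fell, while 5.26% of the members rose. The log2 change was positive in 26 members and negative in 12, with a median of 0.63 against -0.05 for all genes. The median was 0.58 for the S phase members and 1.04 for the mitosis members. All 4 OIR retinas lay above all 4 control retinas in 6 members (Mcm4, Pcna, Cdk1, Ccnb1, Ube2c and Nusap1), and among all genes this held for 6.82%. An unadjusted p under 0.05 was reached by 21.1% of the members and 15.7% of all genes.

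Ube2c was near the limit of detection in the control retinas at P17, with 0.740, 0.266, 0.128 and 0 CPM. The OIR retinas given IgG had 3.34, 3.02, 4.05 and 1.89 CPM, so that every OIR retina lay above every control retina. The means were 3.08 ± 0.899 and 0.283 ± 0.323 CPM (SD, n = 4 each), from 274 and 19 counts. The log2 change was 3.41 (SE 0.72, adjusted p = 0.0044 in edgeR). It passed under each of the 11 alternative settings and without each of the 8 libraries in turn. Pcna was abundant, with 98.6, 77.8, 55.9 and 85.4 CPM in the control retinas and 103, 146, 131 and 130 CPM in OIR. The groups did not overlap, although the lowest OIR retina was close to the highest control retina. The log2 change of Pcna was 0.68 (SE 0.18, adjusted p = 0.027 in edgeR). The call of Pcna was lost when 1 of 6 libraries was left out, with adjusted p = 0.067 without control replicate 2, 0.21 without control replicate 3 and 0.057 without control replicate 4. It was 0.15, 0.089 and 0.057 without IgG replicates 2, 3 and 4, and 0.071 without the 3 libraries rich in crystallins. With limma on log2(TPM + 1) Pcna did not pass (log2 change 0.35, adjusted p = 0.067).

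**Figure D2:**
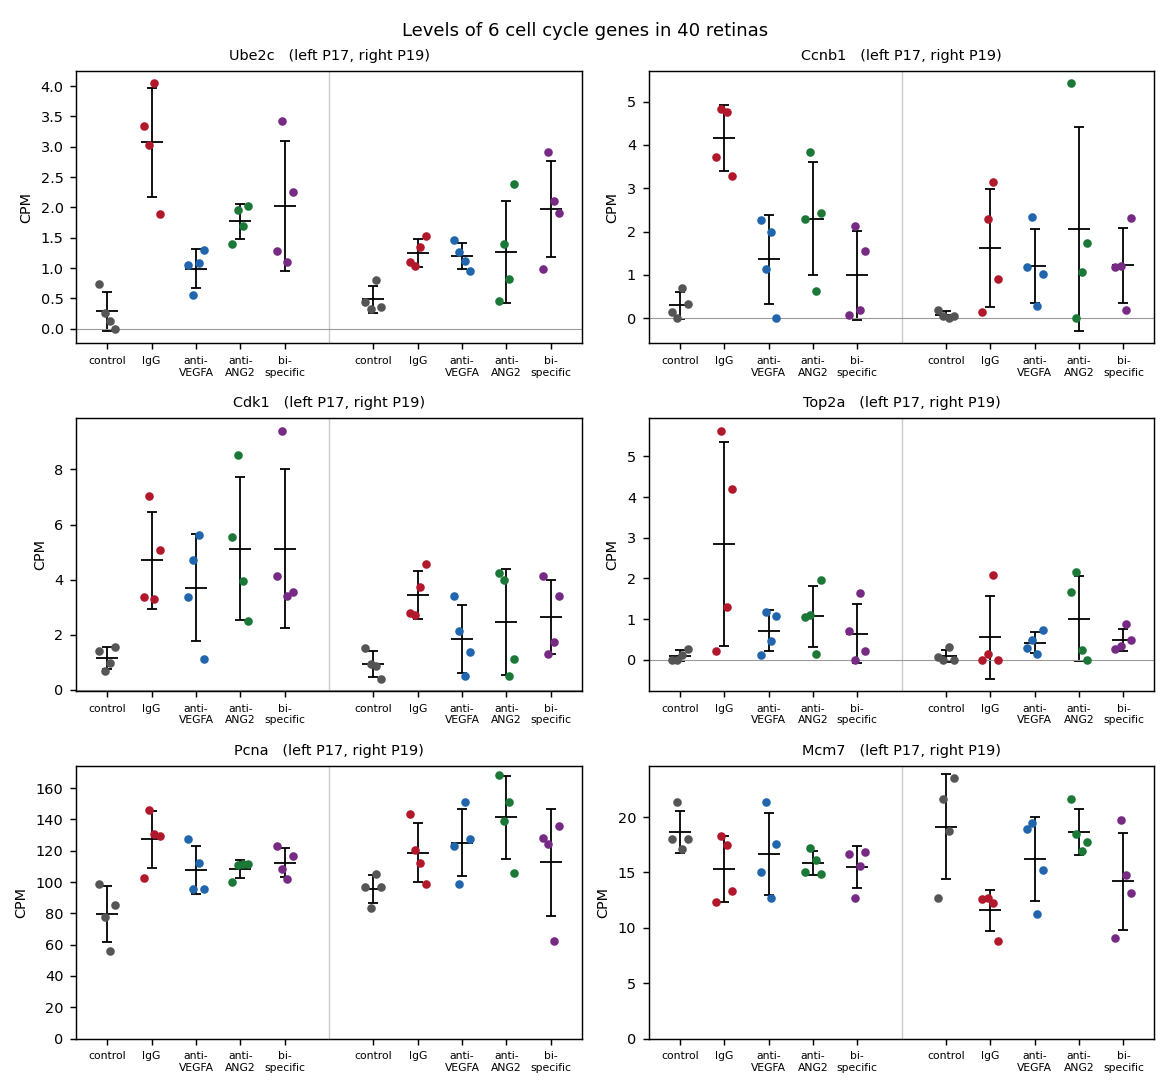
CPM of Ube2c, Ccnb1, Cdk1, Top2a, Pcna and Mcm7 in each retina of the 10 groups, with the group mean and SD as bars (n = 4). Ube2c, Ccnb1, Cdk1 and Pcna have every OIR retina given IgG above every control retina at P17, and Mcm7 has every such retina below every control retina at P19.

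The other S phase members did not pass at P17. Ccne2, which encodes a cyclin E, had 5.78, 11.7, 6.63 and 3.77 CPM in control retinas and 14.4, 18.8, 11.3 and 12 CPM in OIR. Only the lowest OIR retina lay under the highest control retina, and the log2 change was 1.01 (SE 0.32, adjusted p = 0.079 in edgeR). Ccne1, the other cyclin E, had 8.0, 8.88, 7.46 and 10 against 12.9, 8.05, 13 and 4.76 CPM, with OIR retinas both highest and lowest. Its log2 change of 0.18 had a 95% interval from -0.96 to 1.31.

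The MCM genes encode the subunits of the replicative helicase and did not move as 1 group. Mcm7, the most abundant of them per length, had 18, 21.4, 17.2 and 18 CPM in control retinas and 12.3, 18.3, 17.5 and 13.3 CPM in OIR at P17, with a log2 change of -0.28 (95% interval -0.73 to 0.16). Mcm4 had 7.80, 7.10, 7.53 and 8.89 against 15.5, 19.2, 11 and 18.8 CPM. Mcm4 thus lay higher in every OIR retina, but its log2 change of 1.04 (SE 0.53) had an adjusted p of 0.34 in edgeR. Mcm2 had 4.10, 8.35, 3.76 and 1.75 CPM in control retinas and 8.44, 5.84, 6.93 and 5.73 CPM in OIR, which overlapped through 1 control retina (log2 change 0.58, 95% interval -0.22 to 1.37). Mcm3 had 0.202, 1.33, 2.30 and 4.04 against 4.63, 8.09, 1.3 and 2.01 CPM and overlapped widely. Mcm5 and Mcm6 had log2 changes of -0.29 and 0.18, and the nucleotide supply genes Rrm2 and Tyms 1.24 and 0.40, with adjusted p between 0.57 and 0.91 in edgeR.

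Among the genes that drive mitotic entry, Cdk1, the mitotic kinase, and Ccnb1, its cyclin B partner, had the clearest separation at P17 without passing the test. Cdk1 had 1.41, 0.666, 0.957 and 1.55 CPM in control retinas and 3.39, 7.05, 3.28 and 5.06 CPM in OIR, with no overlap. Its log2 change was 2.04 (SE 0.60, 4.10-fold, adjusted p = 0.06 in edgeR). Ccnb1 had 0.134, 0, 0.702 and 0.337 CPM in control retinas and 3.73, 4.83, 4.77 and 3.29 CPM in OIR. Every OIR retina was well above the highest control retina, on 367 against 18 counts, and the log2 change was 3.82 (SE 1.18, adjusted p = 0.074 in edgeR). Ccna2, cyclin A2, did not follow them: it had 6.86, 4.53, 14.5 and 15.4 CPM in control retinas and 5.53, 12.1, 9.31 and 7.81 CPM in OIR. Its groups overlapped fully, and the log2 change of -0.25 had a 95% interval from -1.05 to 0.55. Ccnb2, the other cyclin B, had a log2 change of 1.43 (adjusted p = 0.57 in edgeR).

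The kinases and checkpoint genes of mitosis showed no common direction at P17. Bub1b, a spindle checkpoint kinase and the most abundant of these per length, had 12.4, 9.99, 7.72 and 8.95 CPM in control retinas and 7.37, 11.6, 9.67 and 9.03 CPM in OIR. The groups overlapped fully (log2 change -0.05, 95% interval -0.66 to 0.55). Aurka, Aurkb and Plk1 had log2 changes of -0.22, -1.93 and -0.27, and Bub1 and Melk 1.24 and 2.05, with adjusted p between 0.53 and 0.90 in edgeR. Beside Ube2c, the APC/C activator Cdc20 had a log2 change of -0.82 (adjusted p = 0.82 in edgeR). Birc5, survivin, a subunit of the chromosomal passenger complex, had 1.95, 1.51, 1.79 and 3.30 CPM in control retinas and 3.81, 2.82, 3.96 and 6.95 CPM in OIR. The groups overlapped by 1 retina on each side, and the log2 change of 1.04 had an adjusted p of 0.27 in edgeR.

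Kif23, a kinesin of the cytokinetic midzone, had 0 counts in all 4 control retinas and 0.814, 0.886, 0 and 0 CPM in OIR at P17. The 41 counts in OIR stand against a floor of 3 counts over the control group, at least 10.7-fold higher, but they come from 2 of 4 retinas (adjusted p = 0.19 in edgeR). Cenpe, the kinetochore kinesin and the most abundant kinesin member per length, had 6.72, 4.62, 9.76 and 4.58 against 6.94, 5.48, 1.48 and 8.36 CPM (log2 change -0.21, 95% interval -1.07 to 0.66). Tacc3, which stabilizes spindle microtubules, had 6.66, 8.26, 10 and 8.75 against 8.48, 10.2, 9.99 and 8.48 CPM (log2 change 0.14, 95% interval -0.58 to 0.86). Both groups overlapped in both genes. Prc1, which bundles midzone microtubules, had 0.403, 0.355, 1.08 and 0.135 against 0.471, 2.01, 2.56 and 2.20 CPM, with 3 OIR retinas above all control retinas (log2 change 1.86, adjusted p = 0.34 in edgeR). Nusap1, a spindle protein, had 0.672, 0, 0.893 and 0.471 against 0.900, 2.17, 1.39 and 2.07 CPM, without overlap but with adjusted p = 0.32 in edgeR.

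The chromosome proteins Mki67 and Top2a, both in common use as markers of dividing cells, did not pass and had opposite signs. Mki67, the Ki-67 antigen, had 0.941, 0.977, 0.446 and 2.22 CPM in control retinas and 0.514, 1.21, 0.225 and 0.732 CPM in OIR at P17. The groups overlapped, and the log2 change of -0.76 had a 95% interval from -2.55 to 1.02. Top2a, DNA topoisomerase II alpha, had 0, 0, 0.128 and 0.269 CPM in control retinas and 0.214, 5.64, 1.3 and 4.21 CPM in OIR. Of the OIR retinas 3 were above all control retinas and 1 was not, on 243 against 6 counts (log2 change 4.79, SE 1.53, adjusted p = 0.085 in edgeR).

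The mitosis members were also summed apart by their level in control retinas. Summed over the 12 mitosis members under 1 CPM in control retinas at P17, the level was 3.24 to 6.12 CPM in the control retinas and 17.4 to 25.8 CPM in OIR retinas given IgG. The log2 change was positive in 11 of these 12, with a median of 1.95. Over the other 15 mitosis members the sums were 63.5 to 71.4 and 63.0 to 81.3 CPM, which overlap. These 15 also hold Hmmr, Cdk1, Mki67 and Tpx2, with means of only 1.07, 1.15, 1.15 and 1.25 CPM in control retinas at P17. Cdk1 alone had no overlap, as given above, so the sum does not speak for each member. The split uses the control values of this same comparison, so it is a description and was given no test. Over the 10 S phase members without Pcna the sums were 71.9 to 84.5 and 80.8 to 112 CPM, which also overlap.

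Markers of other cells moved with these values at P17. Of 18 microglia and macrophage genes 15 rose in OIR given IgG, and their sum was 119 to 212 CPM in control retinas and 416 to 700 CPM in OIR. Of 10 pericyte and smooth muscle genes 3 rose, with sums of 76.0 to 95.1 and 134 to 159 CPM, and of 6 astrocyte and reactive glia genes tested 4 rose, with sums of 50.9 to 100.2 and 178 to 453 CPM. Of 6 red blood cell genes tested 4 rose, with overlapping sums of 194 ± 71.3 and 688 ± 574 CPM (SD, n = 4 each). Of 10 tip cell genes 2 rose, Apln and Adm, with sums of 35.6 to 61.2 and 133 to 159 CPM, and of 15 endothelial genes 2 rose, with sums of 192 to 244 and 225 to 289 CPM. Of 11 retinal progenitor genes 0 rose, with sums of 494 to 594 and 410 to 538 CPM, and the progenitor gene Fgf15 had counts in only 35% of all libraries. Of 14 pigment epithelium genes 3 rose, with sums of 939 to 1616 and 1896 to 2955 CPM. With the mean log2 CPM of the pigment epithelium and of the lens genes as covariates, Ube2c passed and Pcna did not (adjusted p = 0.54 in edgeR). The part of microglia, vessel cells, glia and blood cells in the cell cycle values was not tested.

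**Figure D3:**
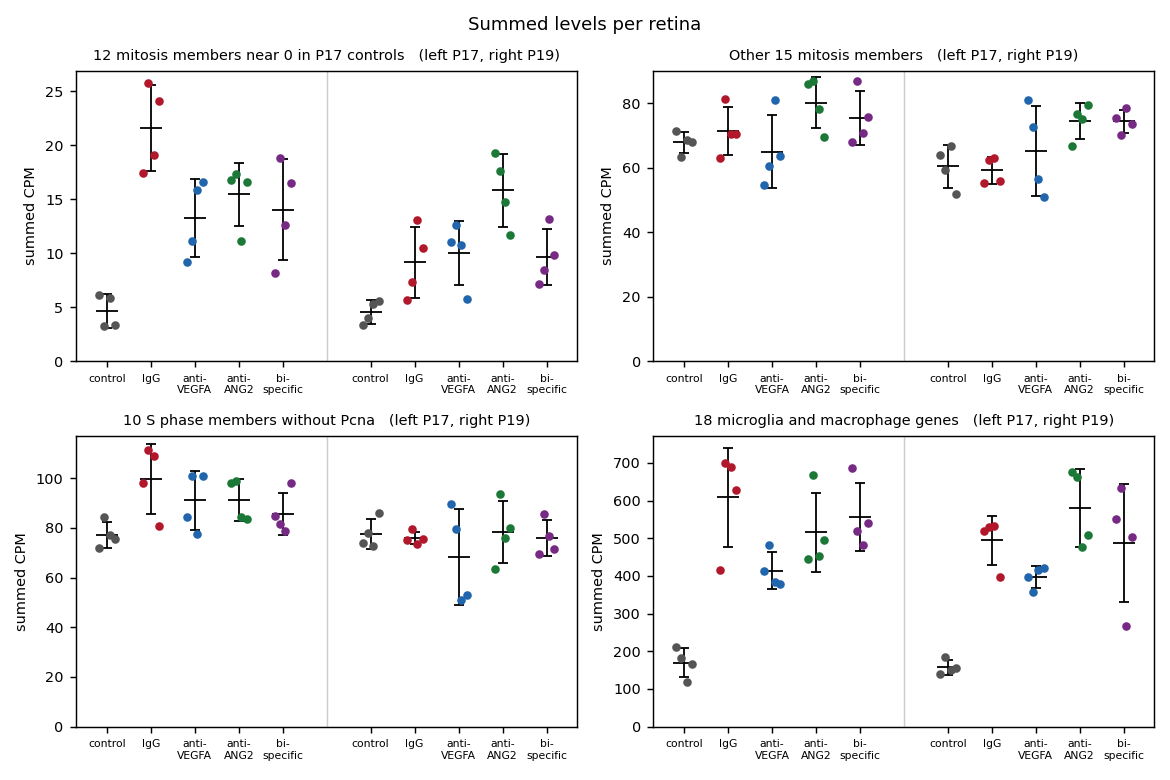
Summed CPM in each retina of the 10 groups for 4 sets: the 12 mitosis members under 1 CPM in control retinas at P17, the other 15 mitosis members, the 10 S phase members without Pcna, and 18 microglia and macrophage genes. The 12 low members and the microglia genes have every OIR retina given IgG above every control retina at both ages. The sums of the other 15 mitosis members overlap. The 12 were picked by their low values in the control retinas at P17 shown here.

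At P19 no member passed in OIR given IgG against control retinas, while 0.821% of all genes rose and 0.0979% fell. At an unadjusted p under 0.05, 3 members were higher (Cdk1, Ccnb1 and Ube2c) and 3 lower (Mcm7, Bub1b and Racgap1), which is 15.8% of the members against 12.6% of all genes. DESeq2 called 3 members (Mcm7, Cdk1 and Ccnb1), limma-voom with sample weights 2 and limma on log2(TPM + 1) 0. The log2 change was positive in 23 members and negative in 15, with a median of 0.27 against -0.05 for all genes. All OIR retinas lay above all control retinas in 3 members (Mcm3, Cdk1 and Ube2c) and below them in 2 (Mcm7 and Racgap1), against 6.64% and 4.35% of all genes.

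Cdk1 again had no overlap, with 1.53, 0.926, 0.868 and 0.407 CPM in control retinas at P19 and 2.80, 2.71, 3.72 and 4.57 CPM in OIR. Its log2 change was 1.89 (SE 0.61, 3.69-fold, adjusted p = 0.12 in edgeR). Ube2c had 0.446, 0.327, 0.806 and 0.356 against 1.11, 1.03, 1.35 and 1.52 CPM. Every OIR retina was the higher here too, with a log2 change of 1.36 (SE 0.67, adjusted p = 0.39 in edgeR). Ccnb1 had 0.191, 0.0544, 0 and 0.0509 against 0.130, 2.29, 3.15 and 0.914 CPM, so that 3 OIR retinas were above all control retinas and 1 was not (log2 change 4.35, SE 1.29, adjusted p = 0.093 in edgeR). Mcm3 had 1.02, 0.0544, 1.55 and 1.12 against 3.25, 1.78, 2.65 and 2.74 CPM, with adjusted p = 0.51 in edgeR. Pcna had 96.8, 83.1, 105 and 96.8 against 144, 121, 112 and 98.6 CPM, overlapping by 1 retina (log2 change 0.31, SE 0.18, adjusted p = 0.48 in edgeR).

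The members lower in OIR at P19 were abundant ones. Mcm7 had 12.7, 21.7, 18.7 and 23.5 CPM in control retinas and 12.6, 12.7, 12.3 and 8.79 CPM in OIR. Every OIR retina was the lower, but the lowest control retina was nearly level with the highest of them (log2 change -0.73, SE 0.22, adjusted p = 0.11 in edgeR). Racgap1, a GTPase-activating protein of cytokinesis, had 7.71, 10.5, 11.8 and 8.91 against 4.49, 6.78, 4.22 and 2.03 CPM. Its groups did not overlap (log2 change -1.15, SE 0.40, adjusted p = 0.16 in edgeR). Bub1b had 13.1, 14.6, 18.6 and 8.86 against 9.24, 5.75, 12.4 and 6.40 CPM, with overlap (log2 change -0.71, SE 0.30, adjusted p = 0.29 in edgeR). The 12 low mitosis members summed to 3.31 to 5.6 CPM in control retinas and 5.66 to 13.1 CPM in OIR. Of the 18 microglia genes 14 rose at P19, with sums of 138 to 185 and 397 to 532 CPM, and tip cell sums were 48.0 to 53.9 and 74.1 to 94.0 CPM.

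**Figure D4:**
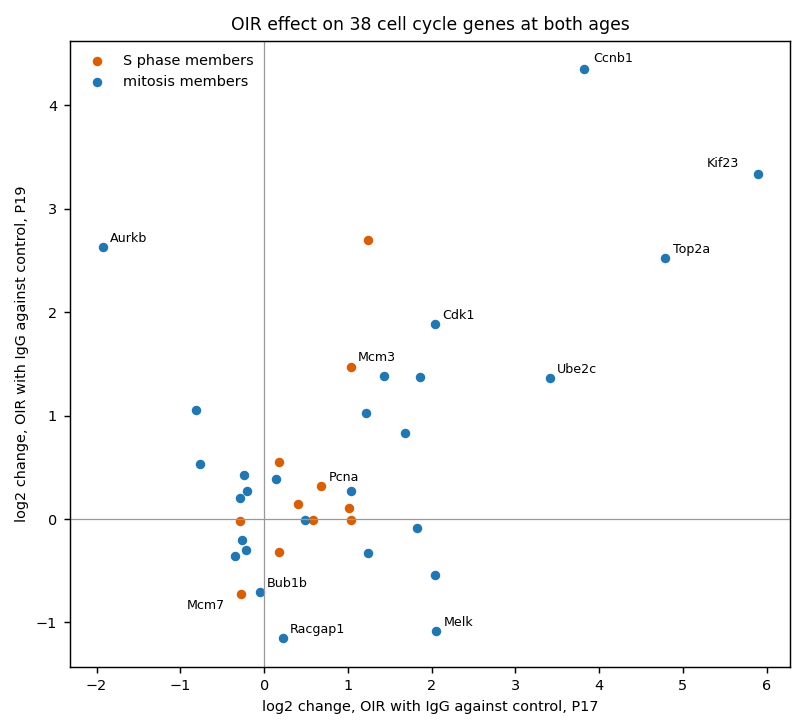
Log2 change in OIR given IgG against control retinas at P17 (horizontal) and at P19 (vertical) for the 38 genes, with S phase and mitosis members marked apart. Of the 38 genes 23 have the same sign at both ages, and Ccnb1, Cdk1 and Ube2c are positive at both.

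The test of whether the OIR effect differed between the ages called 0 members in edgeR, against 0.00426% of all genes (1 gene). At an unadjusted p under 0.05 the log2 change in OIR was higher at P19 than at P17 in 1 member and lower in 3 (10.5% against 5.68% of all genes). Aurkb (-1.93 at P17, 2.63 at P19) and Racgap1 (0.22, -1.15), both among these, had opposite signs at the 2 ages. DESeq2, limma-voom and limma on TPM called 0. Signs were the same at both ages in 60.5% of the members and 65.4% of all genes, and positive at both in 44.7% and 28.7%. From P17 to P19 the OIR retinas given IgG had a negative log2 change in 32 of 38 members, with a median of -0.44 against -0.01 for all genes. No member passed in that comparison (0.00851% of all genes), 3 were lower at an unadjusted p under 0.05 and 0 higher (7.89% against 4.69% of all genes), and the other tools called 0. All retinas at P19 lay below all at P17 in 4 members (Ccnb1, Ube2c, Birc5 and Racgap1), against 2.01% of all genes. In control retinas 17 members were positive and 21 negative over the same days, with a median of -0.11. There 1 member was lower at an unadjusted p under 0.05 (2.63% against 6.01% of all genes). No member was called by edgeR (0.0979% of all genes) or by the other tools. Of the 38 members 37 had no adjusted p in DESeq2 here and could not be called by it. Between the same ages edgeR called 0 members with anti-VEGFA, anti-ANG2 or the bispecific antibody, against 0%, 4.83% and 0.0298% of all genes. At an unadjusted p under 0.05 these had 1, 2 and 0 members higher at P19 and 4, 3 and 2 lower, which is 13.2%, 13.2% and 5.26% of the members against 9.11%, 18.2% and 5.78% of all genes. With anti-ANG2 DESeq2 called 1, limma-voom 1 and limma on TPM 4, and these tools called 0 with the other antibodies. DESeq2 gave no adjusted p to 3, 22 and 15 members with anti-VEGFA, anti-ANG2 and the bispecific antibody.

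The second question was whether an antibody changed these genes in OIR. The comparisons of the 3 antibodies at each age share the same 4 IgG retinas. These retinas also stand against the control retinas and against the IgG retinas of the other age. A gene that is high or low in them therefore moves all of these comparisons together. At P17 edgeR called 0 members and 0% of all genes with anti-VEGFA, anti-ANG2 or the bispecific antibody, and DESeq2, limma-voom and limma on TPM also called 0 members. At an unadjusted p under 0.05, anti-VEGFA had 3 members lower (Plk1, Ube2c and Racgap1), anti-ANG2 had 1 lower (Melk), and the bispecific antibody had Mki67 higher and Ccne2 lower. These are 7.89%, 2.63% and 5.26% of the members, against 4.80%, 7.64% and 3.92% of all genes. The medians were -0.32, -0.11 and -0.15, against -0.01, 0.02 and 0.01 for all genes. All antibody retinas lay below all IgG retinas in 2 members with anti-VEGFA (Ccnb1 and Ube2c; 1.62% of all genes) and in 1 with the bispecific antibody (Ccnb1; 1.71%). With anti-ANG2 all lay above in 1 (Aurkb; 4.79%).

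Ube2c had 1.05, 0.550, 1.07 and 1.3 CPM with anti-VEGFA at P17, all under the lowest IgG retina at 1.89 CPM. The log2 change was -1.63 (SE 0.66, 95% interval -2.96 to -0.30, adjusted p = 1 in edgeR). With anti-ANG2 it had 1.40, 1.95, 1.70 and 2.02 CPM, and with the bispecific antibody 1.29, 3.43, 1.10 and 2.26 CPM. Both sets overlapped the IgG retinas, with intervals from -2.10 to 0.50 and from -1.90 to 0.69. Ccnb1 had 2.28, 1.14, 2.0 and 0 CPM with anti-VEGFA and 0.0644, 2.13, 0.183 and 1.56 CPM with the bispecific antibody. All of these lay under the lowest IgG retina at 3.29 CPM, but the retinas within each group differed widely and the intervals of the log2 change, -3.76 to 0.52 and -4.23 to 0.11, included 0. With anti-ANG2 Ccnb1 had 2.29, 3.84, 0.636 and 2.43 CPM and overlapped.

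Pcna, Cdk1 and Top2a overlapped between each antibody and IgG at P17. Pcna had 127, 95.5, 112 and 95.7 CPM with anti-VEGFA, 100, 111, 111 and 111 CPM with anti-ANG2, and 123, 108, 102 and 117 CPM with the bispecific antibody. The 95% intervals of its log2 change were -0.60 to 0.12, -0.59 to 0.13 and -0.54 to 0.18, all of which include 0. Cdk1 had 3.38, 4.70, 5.6 and 1.13 CPM with anti-VEGFA, 5.53, 8.53, 3.96 and 2.50 CPM with anti-ANG2, and 4.12, 9.41, 3.42 and 3.55 CPM with the bispecific antibody. Top2a had 0.123, 1.18, 0.461 and 1.08 CPM with anti-VEGFA, 1.06, 1.11, 0.141 and 1.96 CPM with anti-ANG2, and 0.708, 0, 1.65 and 0.215 CPM with the bispecific antibody. In Top2a no antibody retina exceeded 1.96 CPM, whereas IgG retinas ran from 0.214 to 5.64 CPM. Racgap1 had 3.75, 8.08, 2.38 and 5.08 CPM with anti-VEGFA, mostly under the IgG retinas at 8.01, 15.2, 11.7 and 8.48 CPM (log2 change -1.16, SE 0.40, adjusted p = 0.99 in edgeR). The 12 low mitosis members summed to 9.23 to 16.6 CPM with anti-VEGFA, 11.1 to 17.3 CPM with anti-ANG2 and 8.17 to 18.8 CPM with the bispecific antibody. The first of these lie under the 17.4 to 25.8 CPM of IgG retinas and over the control retinas, as do the retinas with anti-ANG2. The 12 were picked for low values in these same control retinas, which favours sums over them, so this was given no test. The sums of the microglia genes were 378 to 482, 444 to 669 and 482 to 686 CPM with the 3 antibodies.

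**Figure D5:**
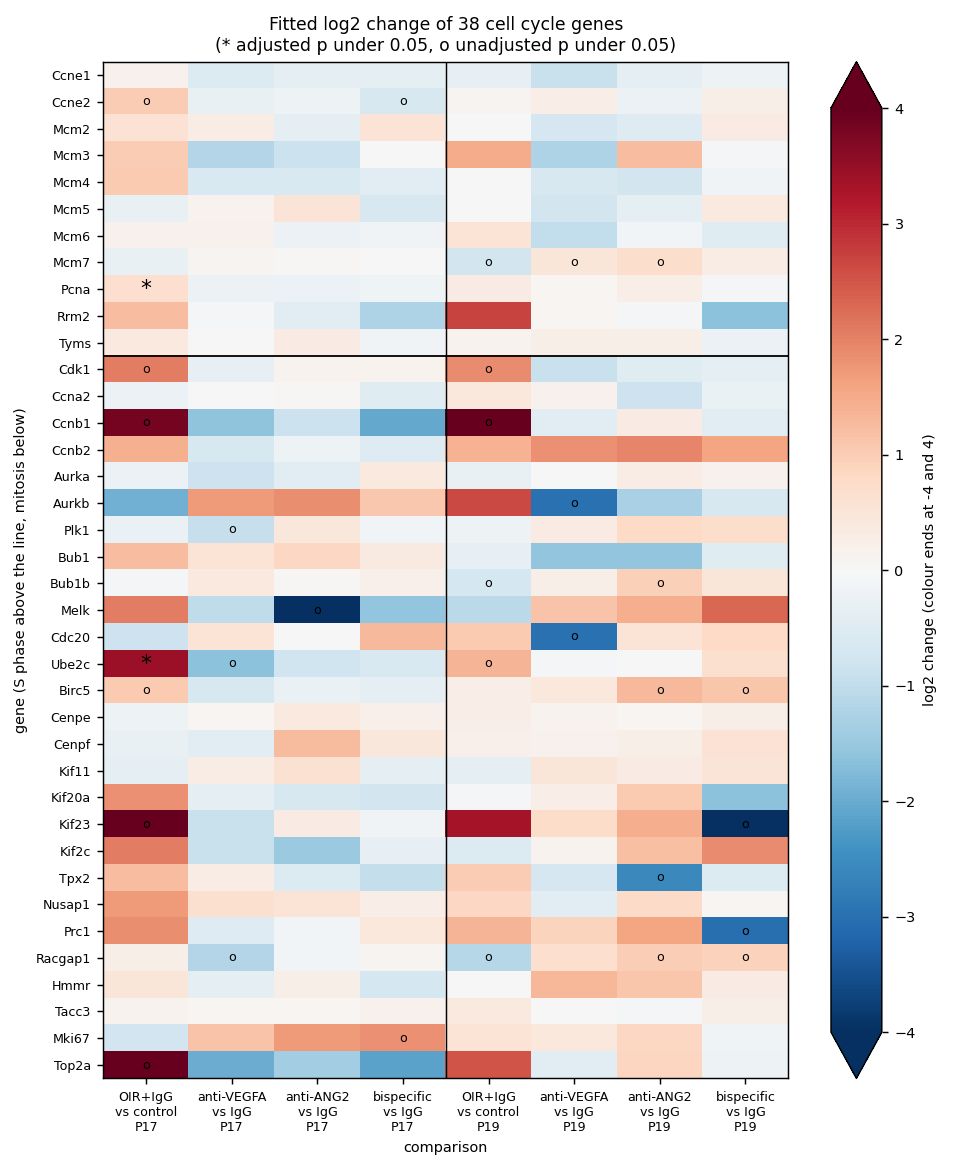
Log2 change of the 38 genes in the 8 main comparisons, OIR given IgG against control and each antibody against IgG at P17 and P19, with colours ending at -4 and 4. Stars mark an adjusted p under 0.05 (edgeR) and circles an unadjusted p under 0.05, and both stars, Ube2c and Pcna, are in the OIR comparison at P17.

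At P19 edgeR again called 0 members for each antibody against IgG, against 0% of all genes with anti-VEGFA, 0.0979% with anti-ANG2 and 0.0468% with the bispecific antibody. At an unadjusted p under 0.05 anti-VEGFA had 1 member higher and 2 lower, anti-ANG2 4 higher and 1 lower, and the bispecific antibody 2 higher and 2 lower. These are 7.89%, 13.2% and 10.5% of the members, against 11.1%, 12.5% and 8.24% of all genes. DESeq2 called 2 members with anti-ANG2, limma-voom and limma on TPM called 0, and these tools called 0 with anti-VEGFA or the bispecific antibody. With anti-ANG2 DESeq2 gave no adjusted p to 34 of the 38 members. With anti-ANG2 the log2 change was positive in 25 of 38 members, with a median of 0.32 against 0.03 for all genes. It was positive in 21 of 27 mitosis members, with a median of 0.77. All retinas with anti-ANG2 lay above all IgG retinas in 4 members (Mcm3, Mcm7, Bub1b and Birc5), against 1.97% of all genes. With anti-VEGFA all lay below in 1 member (Mcm5; 2.65% of all genes), and with the bispecific antibody all lay above in 1 (Plk1; 2.03%).

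Birc5 had 1.76, 2.15, 2.08 and 1.47 CPM with IgG at P19 and 5.13, 3.79, 5.69 and 3.64 CPM with anti-ANG2, without overlap (log2 change 1.29, SE 0.48, adjusted p = 0.23 in edgeR). With anti-VEGFA it had 4.20, 1.91, 1.32 and 2.49 CPM, and with the bispecific antibody 4.06, 2.51, 8.06 and 1.63 CPM, both overlapping IgG. Bub1b had 13.1, 18.8, 18.2 and 15.2 CPM with anti-ANG2, above every IgG retina and at the level of the control retinas (log2 change against IgG 0.95, SE 0.30, adjusted p = 0.17 in edgeR). Mcm7 likewise had 21.6, 18.5, 16.9 and 17.7 CPM with anti-ANG2, above the IgG retinas and within the control range (log2 change 0.69, SE 0.22, adjusted p = 0.17 in edgeR). Mcm3 had 7.47, 4.04, 9.48 and 3.82 CPM, above both the IgG and the control retinas (log2 change against IgG 1.25, adjusted p = 0.58 in edgeR). Prc1 had 0.455, 0.421, 1.24 and 2.23 CPM with IgG, and 0, 0.114, 0.438 and 0 CPM with the bispecific antibody. Prc1 was low in all 4 retinas given the bispecific antibody, overlapping IgG by 1 retina (log2 change -3.01, SE 1.07, adjusted p = 0.44 in edgeR). Ube2c at P19 had 1.46, 1.27, 1.11 and 0.951 CPM with anti-VEGFA, 0.453, 1.39, 0.824 and 2.39 CPM with anti-ANG2 and 0.982, 2.91, 2.10 and 1.91 CPM with the bispecific antibody, all overlapping IgG.

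The third set of comparisons asked which members still differed from control retinas under an antibody. The 3 comparisons at an age share the control retinas with each other and with the IgG comparison. At P17 Ube2c was the 1 member called with the bispecific antibody, where 0.804% of all genes rose. Its mean was 2.02 ± 1.07 CPM against 0.283 ± 0.323 CPM in control retinas (SD, n = 4 each), 7.0-fold higher (log2 change 2.81, SE 0.71, adjusted p = 0.036 in edgeR), with no overlap. The call was lost without any of control replicates 2, 3 and 4 (adjusted p = 0.12, 0.21 and 0.14) or bispecific replicates 2 and 4 (0.17 and 0.088), and the adjusted p was 0.061 without the 3 crystallin-rich libraries, which lie in other groups. With anti-ANG2 edgeR called 0 members (0.953% of all genes). Ube2c was 6.12-fold higher without overlap (adjusted p = 0.059 in edgeR) and Cdk1 4.48-fold (0.076). In this comparison 9 members were higher at an unadjusted p under 0.05 and 0 lower (23.7% against 9.67% of all genes), DESeq2 called 2, and limma-voom and limma on TPM 1 each. With anti-VEGFA edgeR and the other tools called 0 (0.643% of all genes), with 7 members higher and 2 lower at an unadjusted p under 0.05 (23.7% against 10.3% of all genes). The medians over the 38 members were 0.39, 0.50 and 0.42 with anti-VEGFA, anti-ANG2 and the bispecific antibody.

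At P19 the retinas given anti-ANG2 had 5 members higher than control retinas and 0 lower: Mcm3, Pcna, Ccnb1, Birc5 and Prc1. In this comparison 7.06% of all genes rose (1659 of 23495), while 13.2% of the members did, and the median was 0.50 against -0.06 for all genes. Mcm3 had 7.47, 4.04, 9.48 and 3.82 CPM against 1.02, 0.0544, 1.55 and 1.12 CPM (6.59-fold, log2 change 2.72, SE 0.90, adjusted p = 0.042 in edgeR). Pcna had 169, 139, 151 and 106 against 96.8, 83.1, 105 and 96.8 CPM (1.48-fold, log2 change 0.57, SE 0.18, adjusted p = 0.032). Birc5 had 5.13, 3.79, 5.69 and 3.64 against 2.04, 1.74, 0.620 and 1.78 CPM (2.94-fold, log2 change 1.55, SE 0.48, adjusted p = 0.029). These 3 genes and Prc1 had no overlap, which held for 8.48% of all genes. Prc1 had 4.38, 3.98, 1.90 and 2.87 against 0.765, 0.599, 0.310 and 0 CPM (7.77-fold, log2 change 2.96, SE 1.00, adjusted p = 0.047). Ccnb1 had 5.43, 0, 1.07 and 1.73 against 0.191, 0.0544, 0 and 0.0509 CPM, on 114 against 5 counts. Its 4 values with anti-ANG2 spread from the highest of any P19 retina to 0, so the groups overlapped (log2 change 4.69, SE 1.3, adjusted p = 0.013).

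These 5 calls rested on single libraries to differing degrees. Without anti-ANG2 replicate 1, which was among the libraries that correlated least with the rest, none of the 5 passed: Ccnb1 had an adjusted p of 0.11, Mcm3 0.10, Pcna 0.16, Birc5 0.085 and Prc1 0.12 in edgeR. The 2 members called without it were Ccnb2 and Tpx2. Leaving out control replicate 2 also ended the calls of Mcm3 (0.13), Pcna (0.11) and Birc5 (0.059). Control replicate 3 did so for Mcm3 (0.054) and Birc5 (0.12), and control replicate 4 for Mcm3 (0.084), Pcna (0.068) and Birc5 (0.056). Without control replicate 1 Mcm3 had 0.091 and Pcna 0.068. Without anti-ANG2 replicate 3 Mcm3 had 0.11, Pcna 0.079 and Birc5 0.079, and without replicate 2 Pcna had 0.058. Prc1 lost its call without any of the 8 libraries but anti-ANG2 replicate 4, with adjusted p from 0.053 to 0.14. On log2(TPM + 1) with limma Pcna had a log2 change of -0.05 (adjusted p = 0.76), where the median of all genes was -0.31. Without all 3 of the libraries that correlated least, Mcm3 and Birc5 remained called, with Ccnb2 and Tpx2 called in place of the other 3. Of 18 microglia genes 15 rose in the same comparison, with sums of 475 to 677 CPM against 138 to 185, and of 10 pericyte genes 4 rose, with sums of 110 to 202 CPM against 66.7 to 83.7. Of 10 rod genes 4 rose (Cnga1, Sag, Nrl and Nr2e3), with a median log2 change of 0.36, of 15 endothelial genes 4 and of 6 glial genes 3. Their part in the cell cycle values was not tested.

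With anti-VEGFA or the bispecific antibody at P19 edgeR called 0 members against control retinas, where 4.73% and 0.443% of all genes were called. Ccnb1 was 15.1-fold higher with anti-VEGFA (adjusted p = 0.066 in edgeR), and Ube2c 4.05-fold higher with the bispecific antibody (adjusted p = 0.20), both without overlap. At an unadjusted p under 0.05, 5 members were higher and 1 lower with anti-VEGFA, and 5 higher and 0 lower with the bispecific antibody. These are 15.8% and 13.2% of the members, against 17.5% and 10.8% of all genes. DESeq2, limma-voom and limma on TPM called 0, 2 and 1 members with anti-VEGFA and 2, 0 and 1 with the bispecific antibody. DESeq2 gave no adjusted p to 19 members with anti-VEGFA and 6 with the bispecific antibody. The bispecific antibody was given at 0.4 µg/µl and the single antibodies at 0.2 µg/µl, so their pairs differ in concentration too. Among the 3 antibodies compared directly, edgeR, DESeq2, limma-voom and limma on TPM called 0 members in each of 6 pairs. Each pair had 1 to 4 members at an unadjusted p under 0.05 (2.63% to 10.5%, against 2.80% to 16.8% of all genes). At P19 DESeq2 gave no adjusted p to 25 members for anti-VEGFA against anti-ANG2, 37 for bispecific against anti-VEGFA and 29 for bispecific against anti-ANG2. DESeq2 could not call these members, so its 0 at P19 does not cover them. At P17 the same pairs had 0, 0 and 1 such members. In edgeR 0% of all genes were called in each pair at P17, and 0.238%, 0.0553% and 0% at P19 for anti-VEGFA against anti-ANG2, bispecific against anti-VEGFA and bispecific against anti-ANG2. In Prc1 at P19 4.38, 3.98, 1.90 and 2.87 CPM with anti-ANG2 stood against 0, 0.114, 0.438 and 0 CPM with the bispecific antibody (log2 change -4.59, adjusted p = 0.11 in edgeR). With the bispecific antibody Prc1 was also under its own P17 range of 2.18 to 2.81 CPM in every retina (log2 change from P17 to P19 -4.17, SE 1.10, adjusted p = 0.30 in edgeR).

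Other genes of the cell cycle were taken from 4 further lists. Among all genes 2.11% rose in OIR given IgG at P17 and 0.821% at P19. Of 7 inhibitors of cyclin-dependent kinases 6 were tested, and 2 rose in OIR given IgG at P17. Cdkn1a (p21) rose 2.67-fold, from 7.65 ± 2.35 to 20.4 ± 7.0 CPM (adjusted p = 0.0012 in edgeR), and Cdkn2c (p18) 2.39-fold, from 7.94 ± 0.797 to 19 ± 4.21 CPM (adjusted p = 0.0069). Cdkn1a also rose at P19, 2.14-fold, from 6.18 ± 1.31 to 13.2 ± 1.97 CPM (adjusted p = 0.03 in edgeR). The median log2 change of the 6 was 0.84 at P17 and 0.31 at P19. Of 60 other mitosis genes tested, 1 rose at P17, Hmgb2, a chromatin protein, from 43.7 ± 6.13 to 105 ± 22.2 CPM (2.40-fold, adjusted p = 5.5e-05 in edgeR), and 0 at P19, with medians of 0.44 and 0.22. Of 35 other replication genes 0 passed at either age (medians 0.27 and 0.04), nor did any of 17 G1 cyclins, kinases, E2F and Myc genes (medians 0.12 and 0.00).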

How the data were processed

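RNA was measured in 40 libraries, each from 1 whole retina, in 10 groups of 4. The authors deposited expected counts and TPM from RSEM for 42037 gene symbols. The submitters' processing notes name STAR 2.7.10a, RSEM 1.3.3 and GRCm38.p4, while for the annotation nothing is stated in these sources. Libraries were Nextera XT libraries from SMART-Seq mRNA cDNA, per the labels' protocols. These mention neither strand nor molecular identifiers, so counts cannot be taken as independent molecules, and reads of overlapping genes may not have been told apart.

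The deposited expected counts, of which 15.7% of the nonzero values were not whole, were rounded. Counts were fitted with edgeR 4.0.16 (R 4.3.3), with TMM factors, the filter by group and the robust quasi-likelihood test. All 40 libraries were in 1 model of 10 groups. A gene was called at a Benjamini-Hochberg adjusted p under 0.05 over the 23495 genes tested, within each of 25 comparisons and 1 test of the OIR effect between ages. CPM values use TMM library sizes, ± is the SD over 4 retinas, and folds are the model's. Intervals are 95% from the model. The deposited TPM served to compare levels between genes and, as log2(TPM + 1), for limma 3.58.1. DESeq2 1.42.0, limma-voom and the other alternatives are in the closing section. The test was run on simulated counts in which only genes with higher counts were changed, so low members were not covered. Labels call the retinas independent samples but name no mouse or litter, so p-values measure the spread between these retinas.

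The 38 members and all lists were chosen with earlier results of these data known. Values per library are given for members called in any comparison, for the most abundant member of each role by TPM, and for Mki67, Top2a, Ube2c, Cdk1, Ccnb1, Pcna, Mcm2 and Ccne1. Kif23, Mcm4, Nusap1 and Racgap1 were added after their values were seen. Promoters are the RefSeq windows of the called members.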

Additional observations from a re-analysis of the deposited data

Results flagged for a closer look

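In groups of 4 retinas, 12 of 210 values examined (5.71%) had 1 retina far from the other 3, with a gap over Dixon's 95% critical share of the group's range, and chance gives about 1 in 20 groups. Among S phase members, Ccne1 had 11.7 CPM in anti-VEGFA replicate 1 at P19 against 0.293 to 1.55 CPM in the others, and 12.6 CPM in bispecific replicate 2 at P19 against 2.89 to 3.86 CPM. Mcm3 had 3.89 CPM in anti-VEGFA replicate 2 at P19 against 0 to 0.512 CPM. Mcm7 had 8.79 CPM in IgG replicate 4 at P19 against 12.3 to 12.7 CPM. Pcna had 100.1 CPM in anti-ANG2 replicate 1 at P17 against 111 CPM in each of the others, and 62.0 CPM in bispecific replicate 3 at P19 against 124 to 136 CPM.

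Among mitosis members, Cdk1 had 9.41 CPM in bispecific replicate 2 at P17 against 3.42 to 4.12 CPM. In anti-VEGFA replicate 3 at P17, Ccna2 had 16.7 CPM against 5.12 to 7.01 CPM and Tacc3 14.7 CPM against 7.69 to 8.88 CPM. Tacc3 also had 14.8 CPM in anti-ANG2 replicate 3 at P17 against 7.60 to 8.46 CPM. Top2a had 2.08 CPM in IgG replicate 3 at P19 against 0 to 0.140 CPM. The 12 low mitosis members summed to 11.1 CPM in anti-ANG2 replicate 3 at P17 against 16.6 to 17.3 CPM.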

How the results depend on the processing

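The alternatives without the 3 libraries rich in crystallins and without the 3 that correlated least were chosen after seeing the data. For OIR given IgG at P17, where 2 members were called, DESeq2 called 5, limma-voom 4, the 2 groups fitted alone 5, the fit with pigment epithelium and lens covariates 1, that without the crystallin-rich libraries 1 and that without the least correlating 4. Over all genes 555 calls became 1062 with DESeq2, 1049 with limma-voom, 365 with limma on log2(TPM + 1), 90 with the covariates, 381 without the crystallin-rich and 1059 without the least correlating libraries. Of the calls on TPM 164 of 365 were higher, against 496 of 555 in edgeR. Leaving out 1 library gave 181 to 637 calls, with the lowest number without control replicate 3. At P19 DESeq2 called 3 members and limma-voom 2, where edgeR called 0. For anti-ANG2 against IgG at P19 DESeq2 called 2. By comparison, DESeq2 gave no adjusted p to 0 to 37 of the 38 members (9 for OIR given IgG at P17). Such members could not be called by it.

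For anti-ANG2 at P19 against P17, where edgeR called 0, DESeq2, limma-voom and the fit without the least correlating libraries called 1 each and limma on TPM 4. Against control at P17, anti-ANG2 had 0 calls in edgeR, 2 with DESeq2 and without the least correlating libraries, and 1 with limma-voom, on TPM and with the groups alone. The bispecific antibody had 1 call, 2 with DESeq2 and without the least correlating libraries, and 0 without the low-count filter, with the groups alone, with the replicate block, with either set of covariates (pigment epithelium and lens, or Y-linked) and without the crystallin-rich libraries. Against control at P19, anti-VEGFA had 0, with 2 by limma-voom and 1 on TPM, and the bispecific antibody 0, with 2 by DESeq2 and 1 on TPM. Anti-ANG2 had 5, with 1 without the filter, 3 on TPM and 3 with the groups alone, and Pcna had a log2 change of -0.05 on TPM. For bispecific against anti-VEGFA at P19 the fit without the least correlating libraries called 1, against 0. Beyond fewer libraries or other gene sets, the cause was not tested.

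Leaving out each library in turn gave 1 to 2 members for OIR at P17, 1 to 6 for anti-ANG2 against control at P19, 0 to 2 for anti-VEGFA at P19 against P17, and 0 to 1 for anti-VEGFA against IgG at P19, each antibody pair at P19, anti-ANG2 or bispecific against control at P17, and anti-VEGFA against control at P19. It gave 0 in the other comparisons. Replicate numbers gave no clear sign of pairing across groups. Same-numbered retinas deviated together with a correlation over 0.1 in every pair in 0 of 25 comparisons (single pairs ran from -0.132 to 0.214). Dependence between retinas of 1 group was not tested. In IgG retinas at P17 Y-linked sums were 168 and 215 CPM in replicates 1 and 2, and 11.7 and 0.610 CPM in replicates 3 and 4. Control, anti-VEGFA and anti-ANG2 retinas at P19 and bispecific retinas at P17 were split likewise by number. Control retinas at P17 were not. The replicate block changed the count of members called in that bispecific comparison from 1 to 0 and by no more than 1.5 times in the others. Depth limits the low members most: Kif23, Melk and Kif20a had no counts in 10 or more libraries.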

Other observations

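Against control retinas, cell cycle genes outside the 38 passed the edgeR test most often with anti-ANG2 at P19, the comparison in which 2516 of 23495 genes were called. Among all genes 7.06% rose there (1659 of 23495). These calls were not examined without anti-ANG2 replicate 1, whose removal ended the calls of the members named above. Of 60 other mitosis genes 8 rose and 0 fell in this comparison, with a median log2 change of 0.26. They included Hmgb2, from 62.9 ± 8.09 to 135 ± 35.2 CPM (2.14-fold, adjusted p = 0.0001), and the condensin gene Smc4, from 34.2 ± 3.90 to 56.4 ± 11.2 CPM (1.65-fold, adjusted p = 0.0031). The others were Cks1b, Cks2, Cenpa, Mad2l1, Pttg1 and Smc2. Of 35 other replication genes 3 rose and 0 fell: Dut, which removes dUTP, 1.74-fold (adjusted p = 0.0018), the clamp loader gene Rfc4 2.03-fold (adjusted p = 0.0027) and the origin recognition gene Orc6 1.91-fold (adjusted p = 0.0045). Of 17 G1 genes Ccnd2, a cyclin D, rose 2.29-fold (adjusted p = 0.0036), and Mycn was lower, from 12.7 ± 3.61 to 6.46 ± 1.68 CPM (adjusted p = 0.046).

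Cdkn1a and Hmgb2 passed in several groups that share control retinas. Hmgb2 at P17 was 43.7 ± 6.13 CPM in control retinas, 93.0 ± 12.6 CPM with anti-VEGFA, 89.8 ± 8.13 CPM with anti-ANG2 and 103 ± 13.7 CPM with the bispecific antibody (adjusted p = 0.0016, 0.0021 and 9.2e-05 in edgeR). Cdkn1a at P19 was 6.18 ± 1.31 CPM in control retinas, 11.8 ± 1.65 CPM with anti-VEGFA, 17.1 ± 4.23 CPM with anti-ANG2 and 18.6 ± 3.91 CPM with the bispecific antibody (adjusted p = 0.034, 0.00017 and 0.00062 in edgeR).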
